A study of Mus musculus with 12 samples.

Results

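The genes described here are 10 mouse genes of purinergic signalling and of the enzymes that break down nucleotides at the cell surface: P2rx3, P2rx4, P2rx7, P2ry10, P2ry14, Adora2a, Entpd1, Nt5e, Bst1 and Cd38. They were taken by symbol from a count table of 55487 Ensembl gene identifiers, each matched 1 identifier, and all 10 passed the filter on low counts that left 15897 genes for testing. The 10 were chosen by family and selected on their CPM in these 12 libraries, compared between the 4 groups, so that their levels and differences are given as a description, without a p-value for any of them. Total RNA was sequenced from CD8+ T cells of C57BL/6 mouse splenocytes in 4 groups of 3 libraries: cells given IL-2, cells given IL-2 with 80%TCM, cells given IL-12, and cells given IL-12 with 80%TCM. No genotype, age or time in culture is given in the sources used here, no group was left without a cytokine, and the labels do not spell out TCM, although the series title speaks of tumor-like conditions. The labels do not say whether libraries of a group came from separate mice or cultures, so that any p-value below measures only the spread between these libraries, which may be technical.

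Cells release ATP and NAD when they are activated, stressed or damaged. P2X receptors are cation channels that ATP opens, and P2Y receptors are G protein coupled receptors, mostly for nucleotides. At the cell surface CD39 (Entpd1) trims ATP and ADP to AMP, and CD73 (Nt5e) turns AMP into adenosine, which acts on the receptor encoded by Adora2a to raise cyclic AMP and restrain T cells. CD38 and its paralogue CD157 (Bst1) consume NAD outside the cell, and in mouse T cells extracellular NAD can also open the P2X7 channel after the ADP-ribosyltransferase ART2.2 (Art2b) has modified it.

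Between 19.5 and 26 times 1e+06 counts fell on genes in 10 of the libraries, and 49.6 and 42.3 times 1e+06 in replicates 1 and 2 of IL-12, which therefore carry less counting error. Levels are given as CPM, the share of a library's counts times 1e+06, after TMM scaling. The third libraries of both IL-2 groups were unlike their companions: comparing replicates gene by gene, chi-square divided by its degrees of freedom was 28.5 to 45.4 for pairs with either of them and 2.4 to 5.51 for the other pairs, where counting error alone gives 1. All 10 listed genes of glycolysis and the response to low oxygen lay above replicates 1 and 2 there, with median log2 shifts of 1.69 and 1.79. The CD8 T cell markers Cd8a, Cd8b1, Cd3e, Cd3d, Cd3g, Trac and Cd2 summed to between 3170 and 3900 CPM in every library.

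P2rx3 and P2rx7 separated the cytokines most among the 10 genes. P2rx3 (ENSMUSG00000027071) encodes an ATP-gated channel best known from sensory neurons. In IL-2 its replicates 1 to 3 were at 1.45, 1.17 and 0.666 CPM, from 15 to 33 counts, and with TCM at 0.969, 0.369 and 0.678 CPM, from 10 to 20 counts. In IL-12 they were at 239, 238 and 236 CPM, and in IL-12 with TCM at 203, 192 and 206 CPM. The lowest IL-12 library, at 192 CPM, thus lay far above the highest IL-2 library, at 1.45 CPM, whereas the IL-2 libraries with and without TCM overlapped. The fitted log2 fold change of IL-12 against IL-2 was 7.75 (standard error 0.16) without TCM and 8.26 (standard error 0.17) with TCM, or 215- and 307-fold, and over the alternative settings it ran from 5.33 to 8 and from 5.18 to 8.57, the lowest where a constant was added to these low levels before the logarithm. Within IL-12 the level was 1.18-fold lower with TCM, without overlap between the libraries. Such separation of 3 libraries from 3 was common. Of the 15897 tested genes, 8290 had no overlap with TCM in IL-12 and 4361 with TCM in IL-2. For IL-12 against IL-2 the numbers were 9114 without TCM and 7948 with it. Overlap is therefore given here and below only as a description.

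P2rx7 (ENSMUSG00000029468) encodes the P2X7 channel, which opens at high ATP and can lead to shedding of surface proteins and death of T cells. Its libraries were at 2.29, 2.78 and 3.15 CPM in IL-2 and at 67.4, 72.6 and 70.5 CPM in IL-12. With TCM they were at 2.71, 2.14 and 5.62 CPM in IL-2 and at 95.7, 95.7 and 93.9 CPM in IL-12. The groups of the 2 cytokines did not overlap, and all IL-12 libraries with TCM lay above all IL-12 libraries without it. The log2 fold change of IL-12 against IL-2 was 4.68 (standard error 0.22) without and 4.76 (standard error 0.21) with TCM, which is 25.6- and 27.1-fold. With TCM in IL-12 it was 0.44 (standard error 0.16). In IL-2 with TCM the value of 5.62 CPM was that of replicate 3, and the log2 fold change with TCM in IL-2 was 0.35 with the third replicates of both IL-2 groups and -0.09 without them.

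P2rx4 (ENSMUSG00000029470), the gene next to P2rx7 on chromosome 5, did not share this pattern. It encodes an ATP-gated channel that adds to calcium entry during T cell activation. Its libraries were at 22, 28.7 and 19.4 CPM in IL-2, at 16.8, 15.6 and 17.6 CPM in IL-2 with TCM, at 12.5, 14.9 and 14.1 CPM in IL-12 and at 13.9, 12.6 and 15.4 CPM in IL-12 with TCM. IL-2 without TCM was the highest group, and the IL-12 groups overlapped each other. IL-12 against IL-2 gave a log2 fold change of -0.76 (standard error 0.13) without TCM and -0.25 (standard error 0.14) with it, and that of TCM was -0.49 (standard error 0.13) in IL-2 and 0.01 (standard error 0.13) in IL-12.

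**Figure D1:**
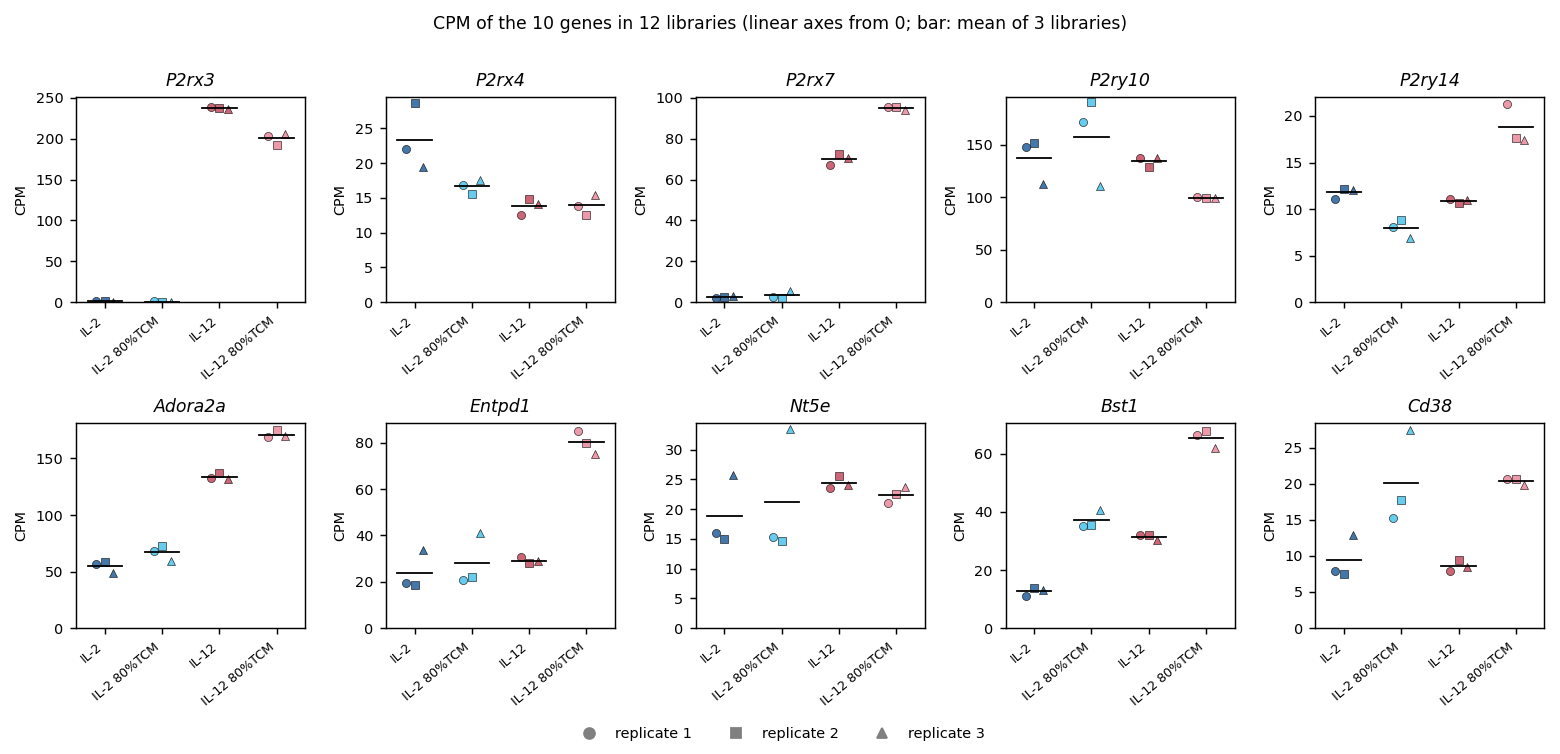
Each panel plots 1 gene, with its level in CPM on a linear axis from 0 for the 4 treatment groups; points are libraries with the shape giving the replicate number, and bars are means of 3 libraries. P2rx3 and P2rx7 lie near 0 in the IL-2 groups and at 192 to 239 and 67.4 to 95.7 CPM in the IL-12 groups, and replicate 3 stands apart in the IL-2 groups for Entpd1, Nt5e and Cd38.

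The promoters of these neighbours are shown, because the 2 channels lie side by side and differ in opposite directions. Those of Cd38, higher with TCM under each cytokine, and of Entpd1, higher with TCM in IL-12, are shown as well. P2rx7 and Entpd1 have more than 1 start in the table, and the window of the upstream start is shown. Each line gives the 250 bases before the RefSeq transcript start (build GRCm38.p6), 5′ to 3′ on the coding strand, with CpG dinucleotides in capitals.
P2rx7, chr5:122643677-122643926, plus strand: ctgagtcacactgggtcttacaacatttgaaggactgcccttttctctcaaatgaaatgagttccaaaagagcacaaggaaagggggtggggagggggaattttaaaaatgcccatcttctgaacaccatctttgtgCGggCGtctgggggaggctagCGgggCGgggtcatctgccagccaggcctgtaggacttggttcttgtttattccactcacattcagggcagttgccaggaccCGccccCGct
P2rx4, chr5:122707294-122707543, plus strand: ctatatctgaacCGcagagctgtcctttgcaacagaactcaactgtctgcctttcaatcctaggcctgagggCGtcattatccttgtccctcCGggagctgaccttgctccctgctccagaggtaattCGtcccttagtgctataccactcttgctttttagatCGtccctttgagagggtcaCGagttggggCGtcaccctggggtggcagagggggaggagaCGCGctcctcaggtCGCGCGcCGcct
Entpd1, chr19:40612116-40612365, plus strand: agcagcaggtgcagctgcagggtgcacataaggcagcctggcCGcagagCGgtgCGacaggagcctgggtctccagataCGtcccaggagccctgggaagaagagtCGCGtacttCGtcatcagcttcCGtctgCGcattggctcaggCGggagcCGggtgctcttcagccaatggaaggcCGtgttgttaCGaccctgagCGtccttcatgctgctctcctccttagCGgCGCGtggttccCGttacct
Cd38, chr5:43868559-43868808, plus strand: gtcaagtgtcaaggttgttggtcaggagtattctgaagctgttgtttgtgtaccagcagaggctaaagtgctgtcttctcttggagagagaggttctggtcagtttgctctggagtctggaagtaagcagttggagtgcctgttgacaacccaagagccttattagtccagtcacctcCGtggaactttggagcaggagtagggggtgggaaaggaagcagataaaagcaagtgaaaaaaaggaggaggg
The P2rx7 window shown held 6 CpG, which equals the median of 32851 mouse windows of this length, and the P2rx4 window held 13, a number reached by 31.5% of them. The upstream Entpd1 window held 18 CpG, reached by 21.7%, and its other window 8, reached by 43%. The P2rx7 window not shown held 4, reached by 62.2%, and the Cd38 window held 1, reached by 92.1%. The promoter table matched 7 of the 10 genes with 13 windows, some genes having several starts, and P2rx3, Adora2a and Bst1 had no entry. On both strands, the STAT dimer motif TTCNNNGAA was in 0 of the 13 windows and in 7.02% of all windows, and the T-box core AGGTGT was in 1, a P2ry14 window, against 11.8%. The hypoxia response core ACGTG, which also lies within the E-box CACGTG, was in 1, a P2ry10 window, against 16.6%. A missing match says only that these letters are not in these 250 bases.

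The P2Y-family receptors were not set apart by the cytokine alone. P2ry14 (ENSMUSG00000036381) encodes a receptor for UDP-glucose, a sugar nucleotide. Its libraries were at 11.1, 12.2 and 12.1 CPM in IL-2 and at 8.04, 8.85 and 6.94 CPM in IL-2 with TCM. They were at 11.1, 10.6 and 11 CPM in IL-12 and at 21.3, 17.6 and 17.4 CPM in IL-12 with TCM. All libraries with TCM lay below those without it in IL-2, and all lay above them in IL-12. The log2 fold change with TCM was -0.57 (standard error 0.11) in IL-2 and 0.79 (standard error 0.11) in IL-12, so that the effects under the cytokines lay 1.36 log2 units apart (standard error 0.15; 0.94 to 1.43 over the alternatives). Without TCM the cytokines differed by -0.12 on the log2 scale, and with TCM by 1.24.

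P2ry10 (ENSMUSG00000050921) is named after this family but encodes a receptor for lysophosphatidylserine, a lipid. Its libraries were at 148, 152 and 113 CPM in IL-2, at 172, 191 and 111 CPM in IL-2 with TCM, at 138, 129 and 138 CPM in IL-12 and at 100, 99.2 and 99.4 CPM in IL-12 with TCM. The IL-12 group with TCM was below every other library, and the other 3 groups overlapped. In both IL-2 groups replicate 3 was the lowest library. TCM gave a log2 fold change of 0.2 (standard error 0.15) in IL-2 and -0.44 (standard error 0.16) in IL-12.

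Adora2a (ENSMUSG00000020178), the gene of the main adenosine receptor of T cells, was ordered by both treatments. Its libraries were at 56.9, 58.2 and 49 CPM in IL-2, at 68, 73 and 59.7 CPM in IL-2 with TCM, at 133, 137 and 132 CPM in IL-12 and at 169, 175 and 170 CPM in IL-12 with TCM. No neighbouring groups in this order overlapped. IL-12 against IL-2 gave a log2 fold change of 1.29 without TCM and 1.36 with it (standard error 0.077 for both), and TCM gave 0.29 (standard error 0.077) in IL-2 and 0.35 (standard error 0.075) in IL-12. The difference between these last values was 0.06 (standard error 0.11).

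Entpd1 and Nt5e encode successive enzymes of adenosine production, and their levels differed in pattern. Entpd1 (ENSMUSG00000048120; CD39) was at 19.4, 18.8 and 33.8 CPM in IL-2 and at 20.8, 22.2 and 41 CPM in IL-2 with TCM. It was at 30.5, 27.9 and 28.8 CPM in IL-12 and at 85.2, 80.1 and 75.3 CPM in IL-12 with TCM. The last group lay above every other library, and the other 3 groups overlapped. The log2 fold change with TCM was 1.46 (standard error 0.24) in IL-12, or 2.76-fold, and 0.23 (standard error 0.24) in IL-2, a difference of 1.24 (standard error 0.34). With TCM, IL-12 exceeded IL-2 by a log2 fold change of 1.52, and by 1.88 without the third replicates of the IL-2 groups.

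Nt5e (ENSMUSG00000032420; CD73) was at 16, 14.9 and 25.7 CPM in IL-2, at 15.3, 14.6 and 33.5 CPM in IL-2 with TCM, at 23.6, 25.5 and 24.1 CPM in IL-12 and at 21, 22.6 and 23.7 CPM in IL-12 with TCM. All neighbouring groups overlapped. With TCM the log2 fold change was 0.17 (standard error 0.27) in IL-2 and -0.12 (standard error 0.27) in IL-12. Replicates 1 and 2 of the IL-2 groups lay below all IL-12 libraries and replicate 3 above them, so that IL-12 against IL-2 with TCM gave 0.09 with all libraries and 0.58 without the third replicates.

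The NAD-consuming ectoenzymes were both higher with TCM. Bst1 (ENSMUSG00000029082; CD157) was at 11.2, 13.7 and 13.1 CPM in IL-2, at 35.3, 35.5 and 40.6 CPM in IL-2 with TCM, at 32.1, 31.9 and 30.3 CPM in IL-12 and at 66.4, 67.8 and 62.1 CPM in IL-12 with TCM. None of the 4 groups overlapped. The log2 fold change with TCM was 1.55 (standard error 0.082) in IL-2 and 1.06 (standard error 0.076) in IL-12, or 2.92- and 2.08-fold, with a difference of -0.49 (standard error 0.11). IL-12 against IL-2 gave 1.31 (standard error 0.082) without TCM and 0.82 (standard error 0.076) with it.

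Cd38 (ENSMUSG00000029084), which lies next to Bst1 on chromosome 5, was at 7.89, 7.53 and 12.9 CPM in IL-2 and at 15.3, 17.7 and 27.4 CPM in IL-2 with TCM. It was at 7.84, 9.46 and 8.51 CPM in IL-12 and at 20.6, 20.7 and 19.8 CPM in IL-12 with TCM. The libraries with TCM lay above those without it under each cytokine, while the cytokine groups overlapped in each medium. TCM gave a log2 fold change of 1.1 (standard error 0.22) in IL-2 and 1.24 (standard error 0.22) in IL-12, and IL-12 against IL-2 gave -0.13 (standard error 0.22) and 0.01 (standard error 0.21). The paralogues thus shared the direction with TCM, and Bst1 alone of the pair was higher in IL-12.

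**Figure D2:**
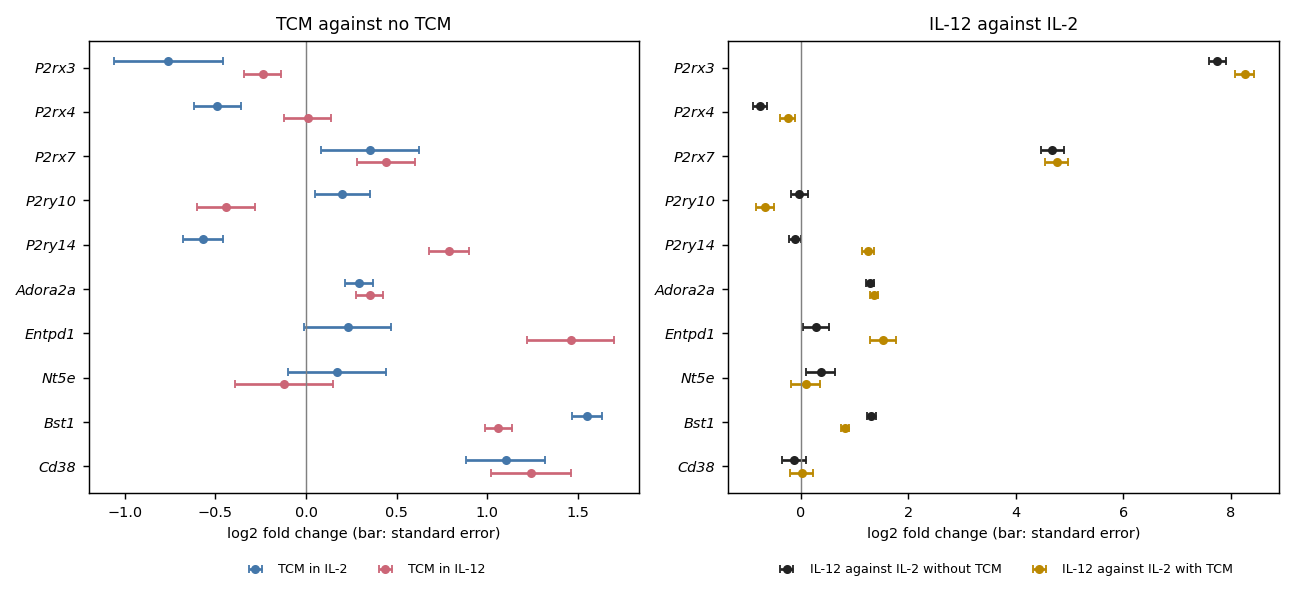
Points are log2 fold changes of the 10 genes from the edgeR fit and bars their standard errors, for TCM against no TCM on the left and for IL-12 against IL-2 on the right. Bst1 and Cd38 lie to the right of 0 with TCM under both cytokines, P2ry14 lies on opposite sides of 0, and P2rx3 and P2rx7 lie at 7.75 to 8.26 and 4.68 to 4.76 for the cytokines.

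In the fit across all genes (edgeR's quasi-likelihood test, Benjamini-Hochberg adjustment, threshold 0.05), 3 of the 10 genes were called higher and 2 lower with TCM in IL-2, where 6.73% of all tested genes were higher and 7.82% lower. With TCM in IL-12 the counts were 5 and 1, against 14.8% and 14.2% of all genes. For IL-12 against IL-2 they were 4 and 1 without TCM, against 22.1% and 23%, and 6 and 1 with TCM, against 19.5% and 19.4%. For the difference of the TCM effect 1 gene was called in each direction, P2ry14 and Bst1, against 1.19% and 0.39% of all genes. These genes were part of that fit, but as the 10 were chosen with these comparisons in view, nothing is read from the counts. Bst1 was no longer called for the difference under 11 of 24 alternatives, 9 of which left out a library. P2ry14 was called under all 24, which is no independent test, as the gene was chosen on the same libraries. P2ry10, the gene counted as lower with TCM in IL-12, was no longer called under 15 of 25. The comparisons also share groups: IL-2 without TCM, for example, is the reference of both TCM in IL-2 and IL-12 against IL-2. Same-numbered libraries of the IL-2 groups deviated together, but replicates 1 and 2 did so as much across numbers (residual correlations 0.45 and 0.41) as within them (0.43 and 0.4). Blocking on replicate within these groups gave 5 higher and 3 lower genes with TCM under IL-2, where 14% of all genes were called in each direction. Without replicate 3 of both groups the counts were 4 and 3, against 12.3% and 12.4% of all genes. With only the IL-2 groups in the fit they were 1 and 1, Bst1 and P2ry14, against 1.62% and 2.19%. They were 2 and 1 without replicate 1 of IL-2, against 3.5% and 4.45%, and also 2 and 1 without replicate 2 of IL-2 with TCM, against 5.55% and 5.61%.

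Replicate 3 of both IL-2 groups was high in 3 of the 4 ectoenzymes. Relative to the mean of replicates 1 and 2, Nt5e was 1.66-fold higher in replicate 3 of IL-2 and 2.24-fold higher in replicate 3 of IL-2 with TCM. Entpd1 was 1.77- and 1.9-fold higher, and Cd38 1.67- and 1.66-fold higher. P2rx7 was 2.27-fold higher in replicate 3 of IL-2 with TCM and 1.23-fold higher in that of IL-2. P2ry10 went the other way, at 0.753 and 0.614 of the mean of the other replicates. In IL-2 a shift of at least 1.5-fold was seen in 4 of the 10 genes and in 11.8% of all tested genes, and with TCM in 5 of the 10 and in 14.5%. None of the 10 shifted that far in replicate 3 of either IL-12 group. The glycolysis and low-oxygen list was higher in the same libraries, and its part in these shifts was not tested.

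**Figure D3:**
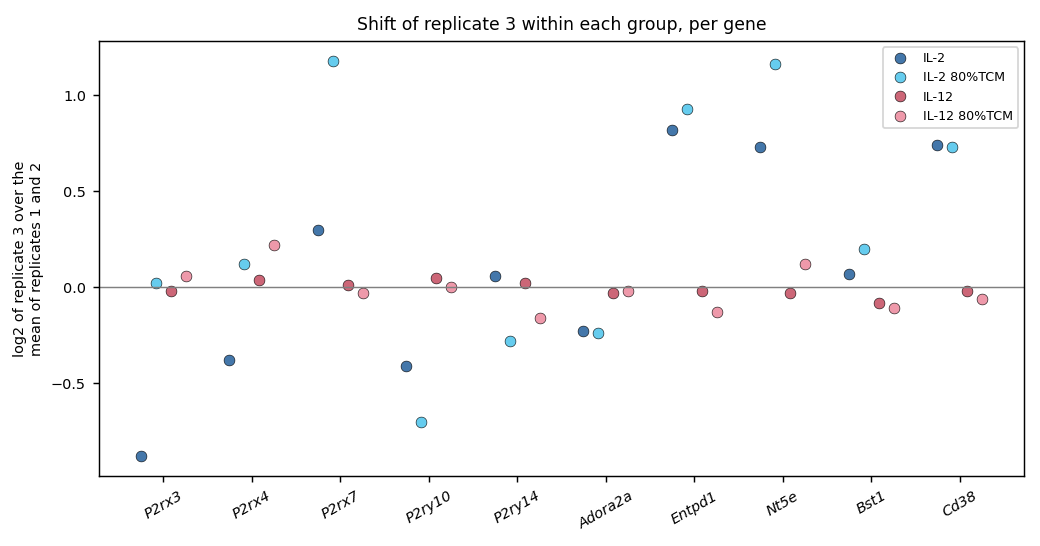
Each point is the log2 ratio of replicate 3 to the mean of replicates 1 and 2 for 1 gene, with colours for the 4 groups and a line at 0 for no shift. In the IL-2 groups Entpd1, Nt5e and Cd38 lie at 0.73 to 1.16, whereas in the IL-12 groups the 10 genes lie between -0.16 and 0.22.

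Per length, the genes stood in a different order under each cytokine. Levels were divided by the summed exon length of each gene in GENCODE M21, which gives CPM per kilobase. In IL-2 without TCM P2ry10 was the highest of the 10 at 46.2 CPM per kilobase, followed by Adora2a at 17.9, and P2rx3 was the lowest at 0.393. In IL-12 without TCM P2rx3 was the highest at 85.2 CPM per kilobase, followed by P2ry10 at 45.3 and Adora2a at 43.8. With TCM in IL-12 the order began with P2rx3 at 71.9, Adora2a at 55.9 and P2ry10 at 33.4 CPM per kilobase, and ended with P2rx4 at 1.99 and P2ry14 at 1.7.

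Genes whose pattern over the 12 libraries was most like that of each gene were found by the root mean square difference between profiles of log2(CPM + 1), each centred on its mean, among 9481 genes. For P2rx3 these were Csf1, Il10 and Ifng, cytokine genes, at 0.78, 0.96 and 1.07 log2 units, so that no close match was found. For P2rx7 they were Gadd45g at 0.18, a stress-response gene, Furin at 0.27, a protease that processes secreted proteins, and Rufy4 at 0.29. Csf1 went from 3.66 to 155 CPM between IL-2 and IL-12 without TCM, and Gadd45g from 10.1 to 177 CPM.

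For Adora2a the nearest were Cytip at 0.07, Dyrk2 at 0.09 and Icos, a costimulatory receptor, at 0.1. For Entpd1 they were the inhibitory receptor gene Lag3 and Flot1, both at 0.2, and Tnfrsf8, which encodes CD30, at 0.22. Lag3 was at 139 CPM in IL-2 and 188 CPM with TCM added, and at 143 CPM in IL-12 and 377 CPM with TCM added. For Bst1 they were Hmgcs1 and Msmo1, enzymes of cholesterol synthesis, both at 0.21, and Gpr171 at 0.28. Hmgcs1 was at 193, 371, 406 and 850 CPM in the same order of groups.

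For Cd38 they were Klc3 and Cox6b2, both at 0.16, and Rcn3 at 0.18. For P2ry14 they were Zbp1 at 0.18, Vwa8 at 0.2 and Slc37a3 at 0.21. For P2rx4 they were Zmym6 at 0.13, and Rab32 and Ctns at 0.14. For Nt5e they were Lonp1, Ppme1 and Ldha, all at 0.15, and Ldha, which encodes a lactate dehydrogenase subunit, is on the glycolysis list above. P2ry10 spanned 0.94 log2 units over the libraries and was below the minimum of 1 set for this search.

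Several of the genes have neighbours that moved as well, but calls were common. For IL-12 against IL-2 without TCM 22.1% of all genes were higher and 23% lower, and with TCM in IL-12 14.8% and 14.2%. Upb1 beside Adora2a was low, at 0.371 CPM in IL-2, 0.808 with TCM added, 2.12 in IL-12 and 4.63 with TCM added. Its log2 fold changes were 1.1 and 1.09 with TCM in IL-2 and IL-12. With IL-12 they were 2.53 and 2.52 without and with TCM (edgeR adjusted p at most 0.031 for each). Specc1l, on the other side of Adora2a, was called higher with IL-12 in each medium (0.4 and 0.58, edgeR adjusted p = 0.00029 and 1.1e-05) but not with TCM. Tctn3 beside Entpd1 and Snx14 beside Nt5e were called in none of these comparisons. Cc2d2b, the other neighbour of Entpd1, was called lower with IL-12 without and with TCM (-0.85 and -1.72, edgeR adjusted p = 0.035 and 0.0011). P2rx3 lies head to head with Ssrp1, which encodes a subunit of the histone chaperone FACT, and the annotated exons share 51 bases on opposite strands, 1.83% of the P2rx3 exons. Ssrp1 was at 399 ± 18.4 CPM in IL-2 and 1400 ± 29.7 CPM in IL-12 (SD, n = 3), a log2 fold change of 1.81 (edgeR adjusted p = 2.2e-11), and with TCM at 343 ± 15 and 1170 ± 19.5 CPM (1.76, adjusted p = 1.7e-11). Whether counting used strand is not stated, so reads from the shared bases cannot be assigned to either gene. In the IL-2 libraries Ssrp1 was at 331 CPM or more and P2rx3 at 1.45 CPM or less. The part of the shared bases in the P2rx3 counts was not tested under either cytokine.

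Bst1 lies head to head with Fbxl5, which encodes an iron-sensing subunit of a ubiquitin ligase, and their exons share 98 bases, 2.95% of the Bst1 exons. Fbxl5 was also higher with TCM, from 66.3 ± 3.34 to 108 ± 4.61 CPM in IL-2 and from 98 ± 1.76 to 178 ± 2.11 CPM in IL-12 (SD, n = 3; edgeR adjusted p = 6.4e-06 and 8.5e-07). Its log2 fold changes of 0.71 and 0.86 were smaller than the 1.55 and 1.06 of Bst1, and the share of this overlap in either was not tested. Gpr171, which encodes a G protein coupled receptor and neighbours P2ry14, rose with TCM under both cytokines, from 41.2 ± 0.699 to 87.8 ± 16.4 CPM and from 104 ± 2.57 to 154 ± 3.47 CPM (edgeR adjusted p = 4.7e-05 and 0.0011). P2ry14 itself was lower with TCM in IL-2.

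**Figure D4:**
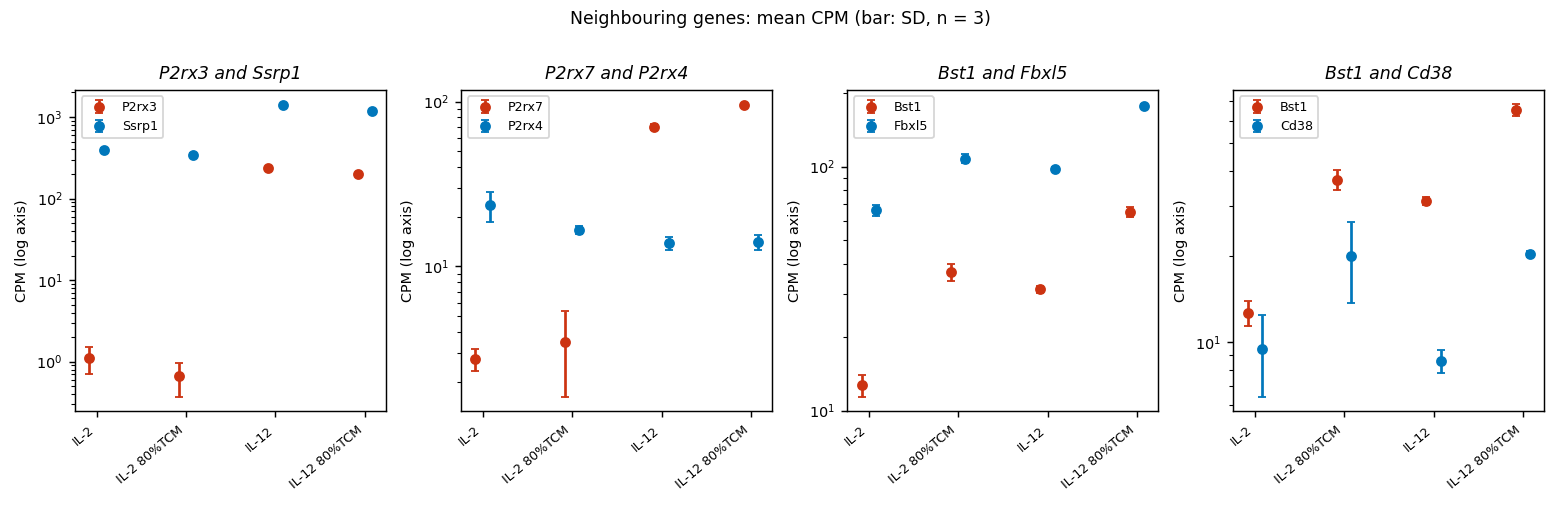
Each panel shows a pair of neighbouring genes as mean CPM on a log axis for the 4 groups, with bars for the SD of 3 libraries. P2rx3 and Ssrp1 are both higher in IL-12, P2rx7 and P2rx4 part in opposite directions, and Bst1, Fbxl5 and Cd38 are all higher with TCM under each cytokine.

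The other genes of this system were taken from a list of 48 by family and role, of which 47 were in the table and 34 passed the filter on low counts. With TCM in IL-2, 2 of the 34 rose and 3 fell, shares near the 6.73% and 7.82% of all genes, with a median log2 fold change of -0.04 against 0 over all genes. Gpr34, a lysophosphatidylserine receptor like P2ry10, fell from 14.3 ± 2.73 to 4.95 ± 0.354 CPM (SD, n = 3; log2 fold change -1.52, edgeR adjusted p = 0.00017), and P2rx1, an ATP-gated channel of platelets and some lymphocytes, fell from 4.08 ± 0.288 to 2.37 ± 0.234 CPM (adjusted p = 0.0062). Enpp1, an ectoenzyme that cleaves ATP to AMP and pyrophosphate, rose from 9.94 ± 0.539 to 14.2 ± 1.4 CPM (edgeR adjusted p = 0.0031, and 0.052 with only these 2 groups in the fit). Art4, a relative of Art2b, rose and Adk, the kinase that returns adenosine to AMP, fell (log2 fold changes 0.59 and -0.54). The call of Adk was lost with only these 2 groups in the fit and without replicate 1 or replicate 2 of IL-2, with adjusted p up to 0.087. With a replicate block in the IL-2 groups 11 of the 34 were called, all 5 of these among them, and 9 were called without the third replicates of both groups.

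With TCM in IL-12, 6 of the 34 rose and 8 fell, where 14.8% and 14.2% of all genes did (median -0.09 against 0.01 over all genes). The count of 14 was 9 without replicate 1 of IL-12, 9 without replicate 2 of IL-12 and 8 without replicate 2 of IL-12 with TCM. Enpp1 rose from 9.98 ± 0.14 to 19.2 ± 1.27 CPM (edgeR adjusted p = 2e-05), and Art2b, the enzyme that modifies P2X7, rose from 52.5 ± 3.48 to 73.6 ± 8.43 CPM (adjusted p = 0.0017). Naprt, an enzyme that makes NAD from nicotinic acid, rose from 2.08 ± 0.385 to 4.2 ± 0.953 CPM (edgeR adjusted p = 0.0026). Of the 8 genes of NAD synthesis tested, 1 was called higher, Naprt, and 1 lower, Nadk. Nadk had a log2 fold change of -0.19 (edgeR adjusted p = 0.04), and its call was lost under 8 of 25 alternatives. Nampt, at 50.3 CPM without and 61.9 CPM with TCM, was not called. Slc29a1, the main equilibrative nucleoside transporter, fell from 42.7 ± 1.99 to 27.3 ± 2.83 CPM (edgeR adjusted p = 0.00011), and Adk fell from 33.2 ± 3.26 to 20 ± 1.49 CPM (adjusted p = 0.00098). Gpr34 fell from 2.24 ± 0.116 to 1 ± 0.405 CPM (edgeR adjusted p = 0.0033). Adora3, the A3 receptor gene, was called higher at 2 to 12 counts a library (log2 fold change 1.63, edgeR adjusted p = 0.045), and that call was lost under 12 of 22 alternatives, with adjusted p up to 0.26.

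For IL-12 against IL-2 without TCM, 4 of the 34 rose and 15 fell, where 22.1% and 23% of all genes did. With TCM 6 rose and 14 fell, where 19.5% and 19.4% of all genes did, with a median of -0.23 for both against -0.01 over all genes. Enpp4, an ectoenzyme that cleaves dinucleotide polyphosphates, rose from 18.6 ± 2.07 to 103 ± 4.4 CPM without TCM and from 18.1 ± 3.1 to 115 ± 1.82 CPM with it (log2 fold changes 2.47 and 2.67, edgeR adjusted p = 9.5e-10 and 3.6e-10). Adora2b, the low-affinity A2B adenosine receptor gene, rose from 0.283 ± 0.0725 to 0.854 ± 0.138 CPM without TCM and, with it, from 0.436 ± 0.125 to 1.02 ± 0.111 CPM (edgeR adjusted p = 0.0011 and 0.0038), levels far under those of Adora2a. Adora3 went the other way without TCM, from 0.455 ± 0.221 to 0.118 ± 0.0261 CPM, at 2 to 15 counts a library (log2 fold change -1.88, edgeR adjusted p = 0.011). That call was lost under 3 of 22 alternatives, with adjusted p up to 0.069. With TCM the log2 fold change of Adora3 was -0.2, and it was not called. Adora1 had 0 counts in every library.

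Among the genes that fell with IL-12, Gpr34 went from 14.3 to 2.24 CPM without TCM and from 4.95 to 1 CPM with it (log2 fold changes -2.67 and -2.3, edgeR adjusted p = 1.1e-07 and 3.3e-06). Art4 fell from 15.1 ± 1.96 to 4.61 ± 0.618 CPM without TCM (edgeR adjusted p = 3.4e-07), while Art2b rose from 39.8 ± 3.38 to 52.5 ± 3.48 CPM (adjusted p = 0.0034). P2ry1, a platelet-type ADP receptor gene, fell from 3.86 ± 0.722 to 1.62 ± 0.284 CPM (edgeR adjusted p = 0.00065). Panx1, a channel through which cells release ATP, fell from 58.8 ± 2.5 to 43.5 ± 2.34 CPM (edgeR adjusted p = 0.00029), and Dpp4 from 232 ± 6.08 to 161 ± 13.3 CPM (adjusted p = 1.3e-05). Nmnat2, an enzyme of NAD synthesis, fell from 7.4 ± 3.15 to 1.52 ± 0.129 CPM (edgeR adjusted p = 0.0012), with the highest IL-2 value, 11 CPM, in replicate 3. P2ry10b, the close paralogue beside P2ry10, fell from 15.3 ± 0.34 to 10.8 ± 0.464 CPM (edgeR adjusted p = 0.00052), and reads can be divided between such paralogues in ways the sources used here do not state. Entpd4 was listed at 0.0738 CPM or less and its near-identical copy Entpd4b at 0.441 CPM or less, and neither level can be trusted for this reason.

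**Figure D5:**
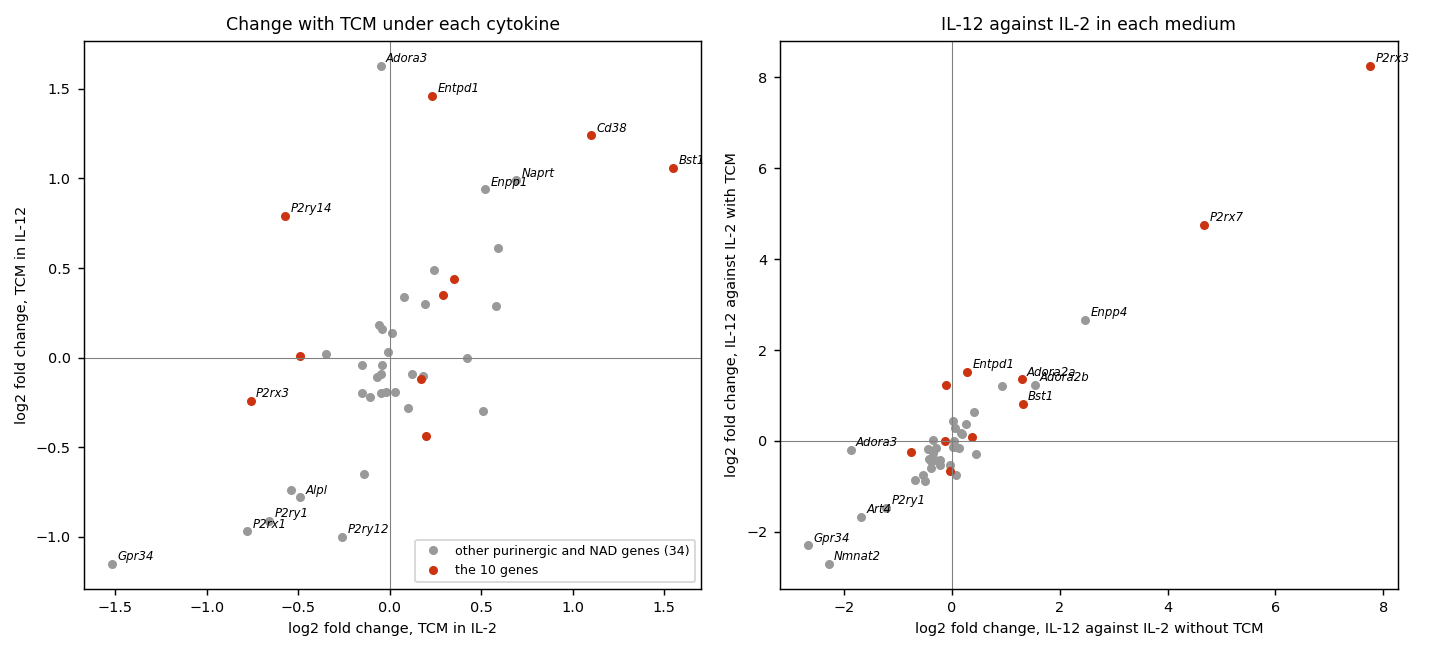
Points are log2 fold changes, with TCM in IL-2 against TCM in IL-12 on the left and IL-12 against IL-2 without against with TCM on the right, for the 10 genes in red and the 34 other tested genes in grey. Bst1, Cd38 and Enpp1 lie to the upper right and Gpr34 and P2rx1 to the lower left for TCM, and P2rx3, P2rx7 and Enpp4 lie farthest up for the cytokines.

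CD39, CD157 and several P2 receptors are also found on B cells, myeloid cells and platelets, so markers of these cells are given beside them. Fewer cells of a type and less RNA per cell cannot be told apart in bulk samples. The 7 macrophage and monocyte markers summed to 6.49 to 18.1 CPM, mostly Cd68, with Csf1r at 0.0738 CPM or less, and the neutrophil markers S100a8 and S100a9 were at 0.0369 CPM or less and at 0. The 6 neutrophil markers summed to 0.837 to 1.11 CPM in IL-2, 0.194 to 0.664 CPM with TCM added, 6.22 to 7.4 CPM in IL-12 and 19.3 to 19.9 CPM in IL-12 with TCM with Cxcr2 at 5.94 to 7 and 18.8 to 19.8 CPM in the IL-12 groups. The 6 dendritic cell markers summed to 9.17 to 13.4, 9.59 to 11.2, 14.4 to 16.1 and 10.3 to 13.6 CPM in the same order, with Xcr1 at 0.279 to 3.15 CPM in the IL-2 groups and 7.14 to 11 CPM in the IL-12 groups, and Clec9a and Siglech at 0.105 CPM or less. Cxcr2 and Xcr1 were thus higher in IL-12, as were P2rx3 and P2rx7, but other markers of these lists went the other way. Of the 3 dendritic cell markers tested, 2 were called higher and 1 lower with IL-12 in each medium. Itgax was at 6.57 to 9.53 CPM in the IL-2 groups and at 0.837 to 3.42 CPM in the IL-12 groups. Without TCM, Mpo was at 0.564 to 0.755 CPM in IL-2 and at 0.0988 to 0.302 CPM in IL-12. The part of neutrophils and dendritic cells in P2rx3 and P2rx7 was not tested. The 7 B cell markers summed to 462 to 793 CPM in IL-2 and 308 to 738 CPM with TCM added, 90.1 to 92.9 CPM in IL-12 and 69.2 to 73.8 CPM in IL-12 with TCM, nearly all of it Ighm, while Ms4a1 was at 0.319 CPM or less. The 6 platelet markers summed to 109 to 133, 45.2 to 56.8, 60 to 71.4 and 24.4 to 31 CPM in the same order of groups, with Gp1bb at 0, and all 5 that were tested fell in each of the 4 comparisons. P2rx1 and P2ry1, both expressed by platelets, fell with IL-12 and with TCM in IL-12, and P2rx1 also with TCM in IL-2. P2ry12, another tested P2Y-family receptor gene, was at 6 to 39 counts a library and was called in none of these comparisons. Its log2 fold change of IL-12 against IL-2 was 0.44 without TCM and -0.29 with it. With TCM it was -0.26 in IL-2 and -1 in IL-12. The P2ry1 call with TCM in IL-12 (edgeR adjusted p = 0.022) was lost under 5 of 24 alternatives, among them the fits without replicate 1 or 2 of either IL-12 group, with adjusted p up to 0.092. The part of platelet RNA in this was not tested. The 4 markers of CD4 and regulatory T cells, of which the latter carry CD39 and CD73, summed to 17.6 to 23.5, 19.9 to 33.6, 16.2 to 17.2 and 29.2 to 33.1 CPM. Most of each sum was Zbtb7b, at 25.8 to 29.7 CPM in IL-12 with TCM, and Cd4 was higher with TCM under each cytokine. Foxp3, the marker of regulatory T cells, was at 1.33 to 1.86, 0.848 to 1.48, 0.593 to 0.613 and 0.314 to 0.749 CPM. Entpd1 was highest in IL-12 with TCM, the last of these groups, and the part of such cells in it was not tested.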

How the data were processed

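The count table holds counts per gene and library that the authors deposited, and the per-sample files hold a signal that the authors made from them, in which all counts of a library are scaled by 1 factor, as CPM on adjusted library sizes. STAR 2.7.7a and edgeR, without a version, are named in the submitters' processing notes, which also name the human build GRCh38 although the identifiers are those of mouse; the sources used here do not give the counting tool or its strand setting. The extraction text in the labels speaks of livers, which no sample label names. Sequences came from RefSeq (GRCm38.p6) and exon lengths from GENCODE M21, and no coordinates were taken from the deposited files.

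Counts were scaled by TMM and filtered with filterByExpr (minimum count 10, minimum total 15). edgeR 4.0.16 fitted 1 mean per group to all 12 libraries (quasi-likelihood test, Benjamini-Hochberg over 15897 genes, threshold 0.05, common biological coefficient of variation 0.104). The 5 contrasts were TCM in each cytokine, IL-12 against IL-2 in each medium, and the difference of the TCM effect. A standard error is the absolute log2 fold change over the root of F. Members and lists were chosen with earlier results of these data known. Every member was named. Other pathway genes could be named where called, with values for those of at least 1 log2 unit, and some others were named after their values were seen; the most alike genes were the nearest 3 with at least 5 CPM for members spanning at least 1 log2 unit. Alternatives used limma 3.58.1 on the deposited signal, DESeq2 1.42.0, other scalings and filters, the 2 groups compared alone, replicate blocks and libraries left out. Residuals of same-numbered libraries correlated at 0.43, 0.4 and 0.68 between the IL-2 groups, and at 0.13, 0.01 and 0.02 between the IL-12 groups, so that the block bears on TCM in IL-2; replicates 1 and 2 correlated with each other as highly (0.45 and 0.41).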

Additional observations from a re-analysis of the deposited data

Results flagged for a closer look

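P2ry14 was flagged because its libraries with TCM all lay below those without it in IL-2 and all above them in IL-12. How many of all tested genes show such opposite separation was not counted, so the flag does not say that the pattern is rare. The difference of the log2 fold changes of P2ry14, IL-12 minus IL-2, was 1.36, and it is given without a test because the gene was chosen with these data known. Slc29a1, a nucleoside transporter, was flagged because the difference of its TCM effect between the cytokines was called by edgeR: its log2 fold change with TCM was -0.14 in IL-2 and -0.65 in IL-12, a difference of -0.51 (adjusted p = 0.044). That call was lost under 10 of 24 alternatives, 9 of which left out a library, with adjusted p from 0.00033 to 0.14 over all of them. Groups of 3 libraries are too small for the outlier test used for larger groups.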

How the results depend on the processing

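Among the 10 genes, no log2 fold change counted in the fit over all genes changed sign under any of the alternatives run. Counts of called genes moved more. For TCM in IL-2, 2313 genes were called, 587 with only the groups compared, 4442 with a replicate block in the IL-2 groups, 3936 with replicate 3 of both IL-2 groups left out, and 1292 to 2938 with each library left out in turn (1292 when this was IL-2 replicate 1, and 1432 for replicate 2). Of the other pathway genes 5 were called, 8 without the filter on low counts, 3 with only the groups compared, 11 with the replicate block, 9 with replicate 3 of both IL-2 groups left out, and 4 to 7 with each library left out. For TCM in IL-12, 4617 genes were called, 7133 with only the groups compared, 7332 with replicate 3 of both IL-2 groups left out and 2931 to 5697 with each library left out (2931 without replicate 1 of IL-12 and 3067 without replicate 3 of IL-12 with TCM); the other pathway genes numbered 14, and 8 to 16. For the difference of the TCM effect, 251 genes were called, 779 without the filter on low counts, 550 with DESeq2, 1668 with a replicate block in the IL-2 groups, 2105 with replicate 3 of both IL-2 groups left out and 105 to 1164 with each library left out. The other pathway genes of that comparison numbered 1, 0 in limma on log2(CPM + 0.1), 2 in limma on log2(CPM + 5), 5 with the replicate block, 7 with replicate 3 of both IL-2 groups left out and 0 to 3 with each library left out. IL-12 against IL-2 stayed within 1.5 times, at 7171 and 6192 genes, 5595 to 8153 and 4910 to 6747 with each library left out, and for the other pathway genes 19 and 20, 16 to 21 and 17 to 23. The replicate block over all libraries moved none of these counts by over 1.5 times. The cause was not tested. Members under about 1 CPM, as P2rx3 in IL-2, rest on 10 to 33 counts a library, which limits the precision of their fold changes.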
